A study of Rattus norvegicus with 6 samples.

Results

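Vegfa and 7 further genes that low oxygen is known to induce (Adm, Angptl4, Bnip3, Car9, Ero1a, P4ha1 and Pdk1) were followed across 6 rat RNA-seq libraries. The 8 genes were taken by their symbols in the deposited expression table, which held 13728 genes in the copy analysed, and all 8 had enough reads to be among the 10607 genes tested. The study set out to compare endometrial organoids with bone marrow stem cells for repair of the injured endometrium, and its sequencing covered cultured cells before any transplantation. The 3 libraries of rat endometrial epithelial organoids (rEEOs) came from gland fragments of female Sprague-Dawley rats 5 weeks of age, grown in Matrigel droplets in a medium with noggin, FGF10, EGF, the TGF-beta receptor inhibitor A83-01, the ROCK inhibitor Y27632, Wnt3a and R-spondin-1, and used at low passage. The 3 libraries of rat bone marrow mesenchymal stem cells (rBMSCs) came from a commercial stock labelled with red fluorescent protein and grown in dishes in DMEM/F12 with fetal bovine serum. The labels give no genotype, drug, hormone treatment or oxygen level for any library, and by the methods the rEEOs of all experiments but a tracing one came from unlabelled rats. Cell type, donor, Matrigel or dish, and medium all differed together between the groups and cannot be told apart. The labels do not say that replicates were separate cultures or animals, so p-values measure the spread between these libraries, which may be technical.

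Cells read oxygen through hypoxia-inducible factors, transcription factors made of an oxygen-sensitive alpha subunit (Hif1a or Epas1) and a stable partner (Arnt). While oxygen is plentiful, prolyl hydroxylases (Egln1, Egln2, Egln3) mark the alpha subunit and the VHL ubiquitin ligase has it destroyed, and when oxygen runs short the subunit persists and binds DNA at the letters ACGTG or GCGTG. Among the targets are secreted signals for blood vessels, enzymes that turn metabolism from mitochondria towards glycolysis, and enzymes that handle acid and secreted proteins. In the endometrium, where the surface layer is shed and rebuilt and its vessels regrow, Vegfa is the best studied of these signals, and several of the genes also answer to hormones, lipids or stress in addition to oxygen.

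Reads over the genes held numbered 10457958 to 15421501 per library, so that 3 reads corresponded to 0.181 to 0.262 CPM (counts scaled to the size of the library). Every pair of replicates differed by more than sampling noise. The 11 epithelial markers summed to 5094 to 5704 TPM (a level per transcript length, scaled to the library) in rEEOs against 2.93 to 3.57 in rBMSCs. The 12 mesenchymal markers summed to 43118 to 45693 TPM in rBMSCs against 172 to 300 in rEEOs, where 9 of them had 3 counts or fewer in every library. The sums of these marker lists therefore matched both labels, though single markers did not all do so. Foxa2, an epithelial marker, had 254, 2 and 79 counts in rEEOs replicates 1, 2 and 3. Dcn, a mesenchymal marker, had only 6 to 9 counts in the rBMSCs libraries. The 5 smooth muscle markers held summed to 6092 to 6881 TPM in rBMSCs against 3.48 to 12.2 in rEEOs. The 5 endothelial markers held stayed at or below 0.54 TPM in sum in every library. The 3 rEEOs libraries differed from each other more than the 3 rBMSCs libraries did, as the values of the 8 genes apart from Angptl4 also show.

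The proximal promoters of the 8 genes were read for the 5 letters ACGTG and GCGTG, the core of a hypoxia response element, on either strand. The RefSeq table of the GRCr8 assembly gave the 250 bases before the transcription start for 7 of the 8 genes, Vegfa with 2 starts, and held no entry for Ero1a. The deposited table carries no coordinates. The windows of Vegfa, Bnip3, Pdk1 and P4ha1 are shown, since they set the gene with the most reads in rEEOs, which held no match, beside the gene with the most matches, and the gene that rose least beside the one that fell. Each is written from 5′ to 3′ on the strand of its gene and ends at the base before the start, and capitals mark the matches (CACGT and CACGC are the same letters on the other strand).
Vegfa, chr9:22452604-22452853, plus strand: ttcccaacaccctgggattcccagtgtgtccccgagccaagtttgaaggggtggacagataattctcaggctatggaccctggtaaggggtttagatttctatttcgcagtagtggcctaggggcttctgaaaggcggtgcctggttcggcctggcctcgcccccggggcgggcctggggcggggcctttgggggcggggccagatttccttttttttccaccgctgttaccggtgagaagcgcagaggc
Bnip3, chr1:203154963-203155212, minus strand: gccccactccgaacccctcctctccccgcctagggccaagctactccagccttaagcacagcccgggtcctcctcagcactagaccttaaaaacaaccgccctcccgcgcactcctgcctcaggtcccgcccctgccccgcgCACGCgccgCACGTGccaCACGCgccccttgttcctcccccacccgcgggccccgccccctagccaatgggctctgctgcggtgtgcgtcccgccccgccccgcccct
Pdk1, chr3:77113264-77113513, plus strand: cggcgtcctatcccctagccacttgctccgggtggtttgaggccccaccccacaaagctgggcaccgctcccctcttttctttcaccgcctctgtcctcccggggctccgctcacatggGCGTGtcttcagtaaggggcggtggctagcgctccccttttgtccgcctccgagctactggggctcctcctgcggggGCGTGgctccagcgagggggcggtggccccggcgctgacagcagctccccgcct
P4ha1, chr20:27844796-27845045, plus strand: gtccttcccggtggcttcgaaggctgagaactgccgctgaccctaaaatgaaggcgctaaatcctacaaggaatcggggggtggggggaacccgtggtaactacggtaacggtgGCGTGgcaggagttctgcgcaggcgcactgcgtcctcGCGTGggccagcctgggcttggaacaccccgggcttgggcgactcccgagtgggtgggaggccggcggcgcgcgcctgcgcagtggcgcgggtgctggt
In Bnip3, 4 matches lay 90 to 108 bases before the start, and 2 of them came from the palindrome CACGTG read on both strands, which is also the letters of an E-box. Pdk1 held GCGTG at 131 and 54 bases before the start, and P4ha1 held it at 136 and 99. Angptl4 held a single ACGTG 230 bases before its start. Adm, Car9 and both Vegfa windows held neither word. A match was thus found in 4 of 7 genes, while 36.7% of all 33469 promoters in the table and 55.1% of the 9454 promoters of tested genes held one, so the share among the targets was near that of expressed genes. With ACGTG alone, 2 of 7 genes held a match against 21.6% of the promoters of tested genes. A match describes letters in the reference and no binding was measured, and enhancers further away were outside these windows.

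Compared to rBMSCs, 6 of the 8 targets were higher in rEEOs, 1 was lower and 1 did not pass the test (edgeR's quasi-likelihood test with Benjamini-Hochberg adjusted p under 0.05 across all genes tested). By that rule 33.3% of all tested genes were higher and 30.2% were lower. With the added requirement of an absolute log2 fold change above 2, 4 targets were called higher (Angptl4, Adm, Bnip3 and Vegfa) and 0 lower, against 16.3% and 13.3% of all tested genes. All 3 rEEOs libraries lay above all 3 rBMSCs libraries in 6 targets and below them in 1, which held for 36.9% and 35.9% of all tested genes. The median log2 fold change of the 8 targets was 2.19, and that of all tested genes was 0.08. Scaling by library size alone moved the all-gene median to 0.46 and gave 2002 genes higher and 1207 lower in place of 1733 and 1412. A limma test on log2(TPM + 1) moved that median to -0.22 and gave 1121 higher and 1202 lower, and the direction of all targets it tested was the same under both.

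**Figure D1:**
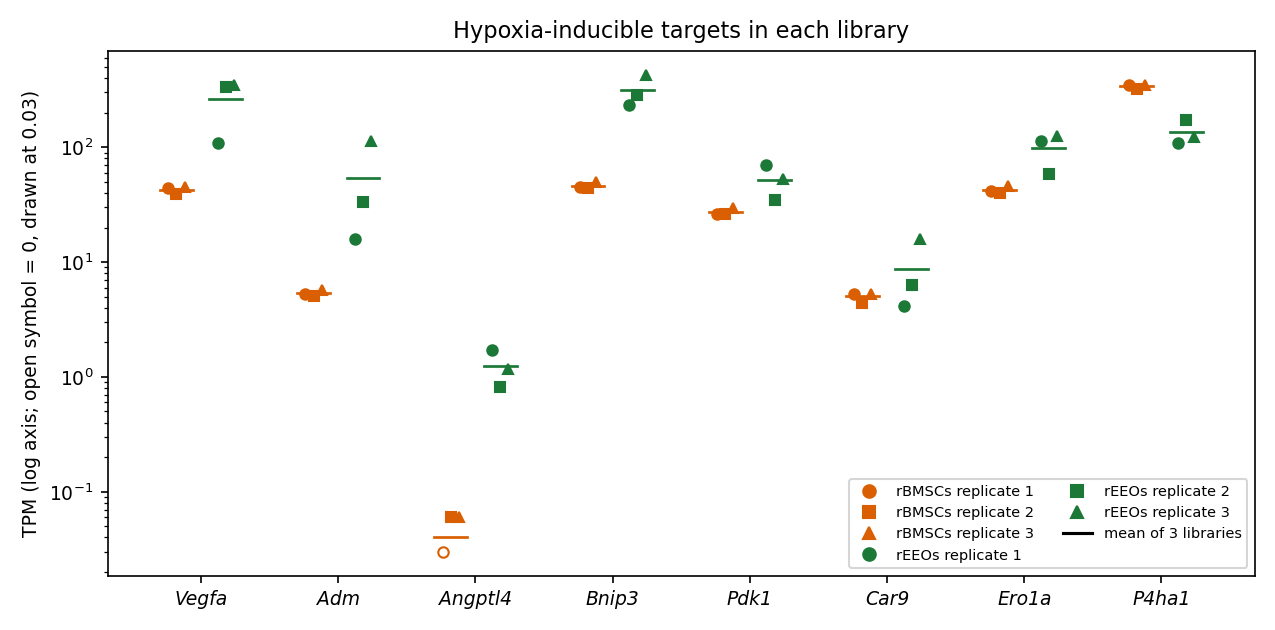
TPM of each target in the 3 rBMSCs libraries (orange) and the 3 rEEOs libraries (green) on a log axis, with a bar for the mean of each group and an open symbol for a value of 0. Bnip3 in rEEOs, at 231 to 429 TPM, lies clear of rBMSCs at 44.5 to 49.9, P4ha1 is reversed, and Car9 overlaps between the groups.

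Vegfa (gene ID 83785) encodes vascular endothelial growth factor A, the secreted signal that draws and maintains blood vessels. Its level was 44.5, 39.3 and 44.8 TPM in rBMSCs replicates 1, 2 and 3 and 108, 332.5 and 349 TPM in rEEOs replicates 1, 2 and 3, from 1307 to 1390 and from 4159 to 12294 counts. The lowest rEEOs library was above every rBMSCs library, and rEEOs replicate 1 stood well below the other two. The group means were 42.9 ± 3.09 TPM in rBMSCs and 263 ± 134 TPM in rEEOs (SD, n = 3). Vegfa rose 7.52-fold on scaled counts, a log2 fold change of 2.91 (SE 0.53) with an adjusted p of 0.00355 in edgeR's quasi-likelihood test. In bulk RNA a difference in the share of cells with a transcript and a difference in the RNA per cell cannot be told apart, here and in each result that follows.

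Adm (gene ID 25026) encodes adrenomedullin, a secreted peptide that widens vessels and supports their lining. It measured 5.30, 5.04 and 5.69 TPM in the rBMSCs libraries and 16.0, 33.5 and 113 TPM in rEEOs replicates 1, 2 and 3. The rBMSCs libraries were close together at 62 to 67 counts, the groups did not overlap, and rEEOs replicate 3 was 7.04 times rEEOs replicate 1, the widest spread among the 8 targets. The means were 5.34 ± 0.33 and 54.1 ± 51.5 TPM (SD, n = 3). Adm rose by a log2 fold change of 3.70 (SE 0.82), or 13.0-fold, with an adjusted p of 0.00786 in edgeR's quasi-likelihood test.

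Angptl4 (gene ID 362850) encodes a secreted inhibitor of lipoprotein lipase, which is induced by hypoxia and also by the fatty acid receptors of the PPAR family. It was read by 0, 1 and 1 counts in the rBMSCs libraries and by 34, 16 and 23 counts in rEEOs replicates 1, 2 and 3, or 1.73, 0.81 and 1.17 TPM. The groups did not overlap, but the exact 95% Poisson intervals of the rEEOs libraries (23.5 to 47.5, 9.1 to 26.0 and 14.6 to 34.5 counts) did, so no order among those libraries was detectable at this depth. These intervals cover counting error only. Against a floor of 3 counts in each rBMSCs library, Angptl4 was at least 7.93-fold higher in the mean of rEEOs, with an adjusted p of 0.000567 in edgeR's quasi-likelihood test. It had the lowest level of the 8 targets in both groups.

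Bnip3 (gene ID 84480) encodes a protein of the outer mitochondrial membrane that marks mitochondria for removal by autophagy. Its levels of 45.0, 44.5 and 49.9 TPM in the rBMSCs libraries compare with 231, 286 and 429 TPM in rEEOs replicates 1, 2 and 3. Every rEEOs library lay far above every rBMSCs library, and replicate 3 was the highest and replicate 1 the lowest of the rEEOs. The mean rose from 46.4 ± 2.98 to 315 ± 102 TPM (SD, n = 3), a log2 fold change of 3.07 (SE 0.35), or 8.43-fold, with an adjusted p of 0.000452 in edgeR's quasi-likelihood test. By mean TPM it was the highest of the targets in rEEOs, though Vegfa was above it in replicate 2. Its closest relative Bnip3l, which has the same role in mitophagy, rose by 1.00 (SE 0.11, adjusted p = 0.000471, edgeR), and on log2(TPM + 1) its adjusted p was 0.107 with limma.

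Pdk1 (gene ID 116551) encodes pyruvate dehydrogenase kinase 1, which closes the entry of pyruvate into the mitochondrial citric acid cycle. It measured 26.4, 26.1 and 29.4 TPM in the rBMSCs libraries and 69.4, 35.0 and 52.7 TPM in rEEOs replicates 1, 2 and 3. The groups did not overlap, and the lowest rEEOs library here was replicate 2, with replicate 1 the highest. Pdk1 rose by a log2 fold change of 0.71 (SE 0.20), or 1.64-fold, with an adjusted p of 0.0190 in edgeR's quasi-likelihood test. That call was lost when any single rBMSCs library was left out (adjusted p 0.0584 to 0.0719, edgeR) and without rEEOs replicate 3 (adjusted p 0.0612, edgeR). Its relative Pdk3 had a log2 fold change of -0.37 (SE 0.13, adjusted p = 0.0446, edgeR), which was 0.01 (adjusted p = 0.951) with scaling by library size alone and lost its call with other count filters (adjusted p 0.0529 and 0.0552, edgeR), without any single rBMSCs library (adjusted p 0.114 to 0.16, edgeR) and without rEEOs replicate 2 or 3 (adjusted p 0.0552 and 0.098, edgeR). Pdk4 did not pass the test (log2 fold change 1.23, SE 1.13, adjusted p = 0.370, edgeR), with 2.60, 0 and 4.56 TPM in rEEOs replicates 1, 2 and 3, and passed without rEEOs replicate 2 (1.83, adjusted p = 0.0259, edgeR). Pdk2 was not analysed here.

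Car9 (gene ID 313495) encodes carbonic anhydrase 9, a membrane enzyme that disposes of acid outside the cell and is among the genes most tied to hypoxia in tumours. Its levels were 5.32, 4.42 and 5.32 TPM in the rBMSCs libraries and 4.12, 6.38 and 15.8 TPM in rEEOs replicates 1, 2 and 3, from 90 to 101 and from 93 to 356 counts. The groups overlapped: rEEOs replicate 1 lay below all 3 rBMSCs libraries and replicates 2 and 3 lay above them. The exact 95% Poisson interval of rEEOs replicate 1 (75.1 to 113.9 counts) overlapped those of the rBMSCs libraries (72.4 to 122.7 counts). Its place below them was therefore within counting error. The log2 fold change was 1.14 (SE 0.57) and its adjusted p of 0.122 in edgeR's quasi-likelihood test missed the threshold. Single libraries decided this value, which was 1.57 (adjusted p = 0.00673, edgeR) without rEEOs replicate 1 and 0.33 (adjusted p = 0.494, edgeR) without rEEOs replicate 3.

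Of the other carbonic anhydrases in the list of relatives, 6 were held, of which 3 rose, 2 did not pass the test and 1 had too few reads to be tested. Car12, the second membrane enzyme known to answer to hypoxia, was at 0 counts in all rBMSCs libraries and at 40.6, 21.2 and 39.0 TPM in rEEOs replicates 1, 2 and 3, at least 378-fold higher (adjusted p = 0.000121, edgeR). Car2, a cytosolic form, was likewise at 0 counts in rBMSCs and at 21.5, 13.1 and 102 TPM in rEEOs, at least 237-fold higher in the mean (adjusted p = 0.00645, edgeR). Car14 rose by 3.23 (SE 0.42, adjusted p = 0.000789, edgeR) to between 2.19 and 2.86 TPM. Ca5b (log2 fold change 0.35, SE 0.24, adjusted p = 0.236, edgeR) and Car13 (0.87, SE 0.85, adjusted p = 0.397, edgeR) did not pass, although Ca5b did with scaling by library size alone (adjusted p = 0.044, edgeR) and without rEEOs replicate 2 (adjusted p = 0.0231, edgeR), and Car3 had 2 counts or fewer in every library. Both Car12 and Car2 were above Car9 in TPM in each rEEOs library, while in rBMSCs Car9 was read and those 2 were not.

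Ero1a (gene ID 171562) encodes the oxidase that keeps protein disulfide isomerase oxidised in the endoplasmic reticulum, where secreted proteins such as VEGF-A fold. It measured 41.3, 39.9 and 45.6 TPM in the rBMSCs libraries and 112, 58.6 and 124 TPM in rEEOs replicates 1, 2 and 3. The groups did not overlap, and replicate 2 was the lowest rEEOs library. Ero1a rose by a log2 fold change of 1.46 (SE 0.26), or 2.75-fold, with an adjusted p of 0.00325 in edgeR's quasi-likelihood test. Its relative Ero1b, which does the same task, rose by 1.55 (SE 0.26, adjusted p = 0.00259, edgeR) from between 2.52 and 3.48 TPM to between 5.41 and 8.55 TPM.

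P4ha1 (gene ID 64475) encodes the catalytic subunit of collagen prolyl 4-hydroxylase, which makes stable collagen helices possible and is distinct from the prolyl hydroxylases that sense oxygen. It was the only target to fall: 349, 324 and 351 TPM in the rBMSCs libraries against 109, 173 and 124 TPM in rEEOs replicates 1, 2 and 3. The highest rEEOs library was below the lowest rBMSCs library. The log2 fold change was -1.01 (SE 0.31), which puts rBMSCs 2.01-fold above rEEOs, with an adjusted p of 0.0265 in edgeR's quasi-likelihood test. With scaling by library size alone the change was -0.65 and the adjusted p was 0.0826 (edgeR). The call was also lost without any single rBMSCs library (adjusted p 0.0687 to 0.0724, edgeR) and without rEEOs replicate 3 (adjusted p 0.0805, edgeR).

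Other enzymes that modify collagen stood in the related lists, and they are given together after their values were seen, beside the 30.2% of all tested genes that were lower. P4ha3, another catalytic subunit, was at 390 to 399 TPM in rBMSCs and at 0 counts in all rEEOs libraries, at least 2234-fold lower (adjusted p = 1.46e-05, edgeR). Lox and Loxl2, which cross-link collagen, and Plod2, which hydroxylates its lysines, are hypoxia-inducible as well, and they were at 288 to 854 TPM in rBMSCs and at no more than 1.37 TPM in rEEOs. Plod1, a relative of Plod2, had a log2 fold change of -0.96 (SE 0.16, adjusted p = 0.00239, edgeR). P4hb, the shared second subunit, did not pass the test (log2 fold change -0.11, SE 0.17, adjusted p = 0.584, edgeR) but passed as lower on log2(TPM + 1) (-0.38, adjusted p = 0.0363, limma). P4ha3, Lox, Loxl2 and Plod2 moved with the mesenchymal markers Col1a1, Col1a2 and Col3a1, which were at 11 counts or fewer in every rEEOs library. In rEEOs Plod1 kept 43.01 to 59.95 TPM, against 121.63 to 129.05 in rBMSCs, and P4hb kept 644 to 813 TPM. The part of cell type in the P4ha1 result was not tested.

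By mean TPM, the order in rEEOs was Bnip3 (315 ± 102), Vegfa (263 ± 134), P4ha1 (135 ± 33.6), Ero1a (98.5 ± 35.1), Adm (54.1 ± 51.5), Pdk1 (52.4 ± 17.2), Car9 (8.77 ± 6.19) and Angptl4 (1.24 ± 0.46, SD, n = 3 each). The ranges of each gene and the next overlapped down to Pdk1, while Pdk1, Car9 and Angptl4 were separated from one another. Within each single rEEOs library, Ero1a was above Adm despite the overlap of their ranges. In rBMSCs the order was P4ha1 (341 ± 15.3), Bnip3 (46.4 ± 2.98), Vegfa (42.9 ± 3.09), Ero1a (42.3 ± 2.96), Pdk1 (27.3 ± 1.81), Adm (5.34 ± 0.33), Car9 (5.02 ± 0.52) and Angptl4 (0.04 ± 0.03, SD, n = 3 each). There the ranges of Bnip3, Vegfa and Ero1a overlapped, as did those of Adm and Car9, although Bnip3 was above Vegfa in each single rBMSCs library. P4ha1 thus led the targets in rBMSCs, above Bnip3 by more than the spread, and stood behind Bnip3 in rEEOs.

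**Figure D2:**
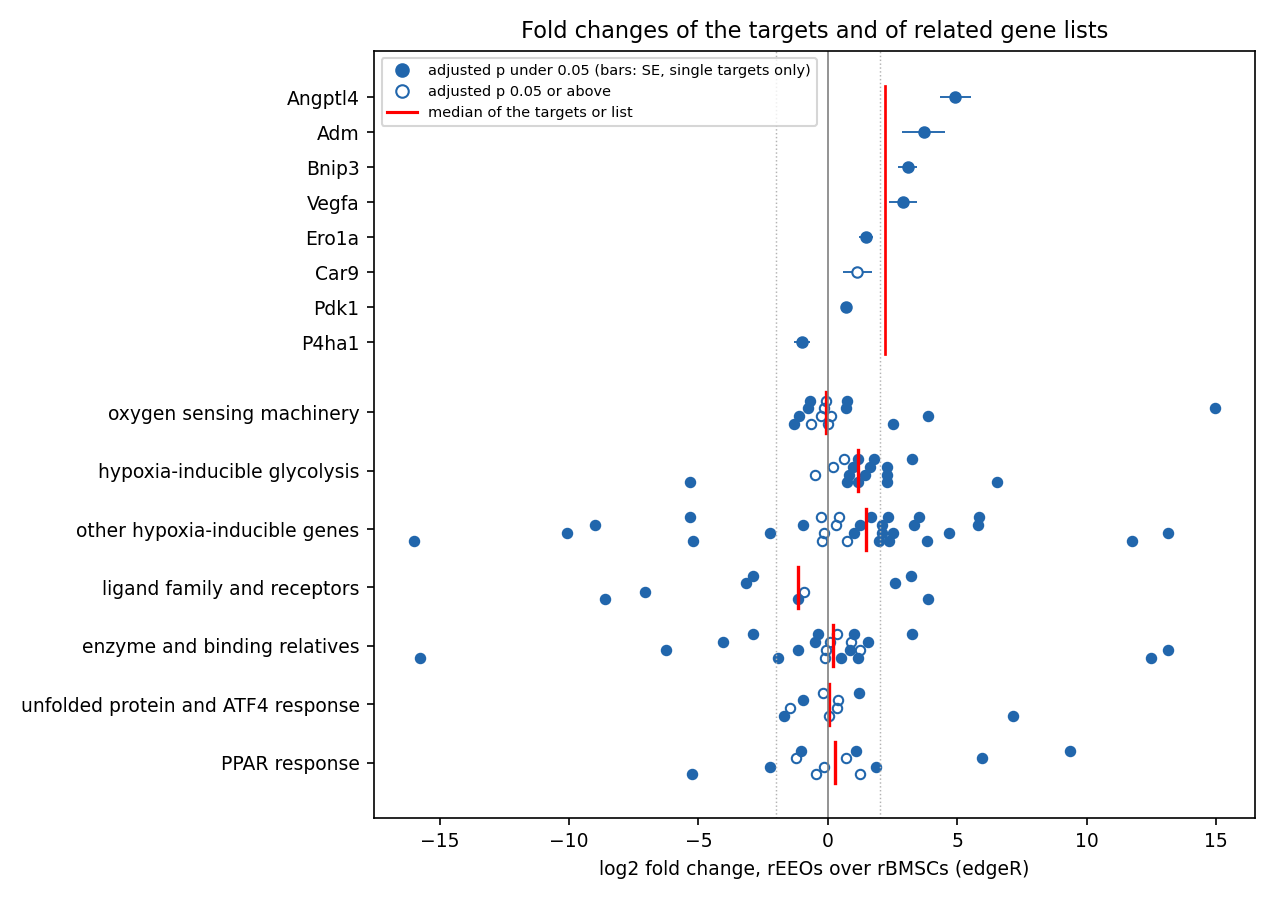
Log2 fold change of rEEOs over rBMSCs (edgeR) for the 8 targets, with SE bars, and for the genes of 7 related lists, where each point is a gene, filled if its adjusted p was under 0.05, and red bars are medians. The targets run from -1.01 for P4ha1 to 3.70 for Adm, with Angptl4, as for other genes of 3 counts or fewer in 1 group, drawn at a fitted value that is no bound, and the glycolysis list has its median at 1.17 while the oxygen sensing list has it at -0.08.

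Across the 3 rEEOs libraries the targets did not all move together. On scaled CPM, 5 of the 8 were lowest in replicate 1 (Vegfa, Adm, Bnip3, Car9 and P4ha1), and 41% of all tested genes were lowest there. On TPM the same 5 targets were lowest there, against 19% of all tested genes. Ero1a and Pdk1 were lowest in replicate 2, and for Angptl4 no order was detectable at its depth. Each library is a single one, so these differences carry no test, and the libraries have no order of their own.

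The size of the difference varied among the targets. Taken as log2 CPM of replicate 1 minus the mean of replicates 2 and 3, it was -2.44 for Adm, -2.02 for Vegfa, -1.75 for Car9, -1.09 for Bnip3 and -0.96 for P4ha1. Ero1a had -0.09, Angptl4 0.31 and Pdk1 0.41. Replicate 1 was thus at least 2-fold lower for 4 of 8 targets, against 9.91% of all tested genes. A lower value than that of Adm was seen in 1% of tested genes, than that of Vegfa in 1.8%, and than that of Car9 in 2.7%. For Bnip3 and P4ha1 the shares were 8.4% and 10.6%.

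Replicates 2 and 3 differed in turn. Adm, Bnip3 and Car9 were lowest in replicate 1 and highest in replicate 3, an order that 18% of all tested genes had. Between replicate 3 and replicate 2 the log2 difference was 1.66 for Adm, 1.22 for Car9, 1.00 for Ero1a and 0.50 for Bnip3. Vegfa was level between them at -0.01, and P4ha1 stood at -0.56. Vegfa and Adm, the pair of vessel signals, therefore shared a low replicate 1 and differed in replicate 3.

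**Figure D3:**
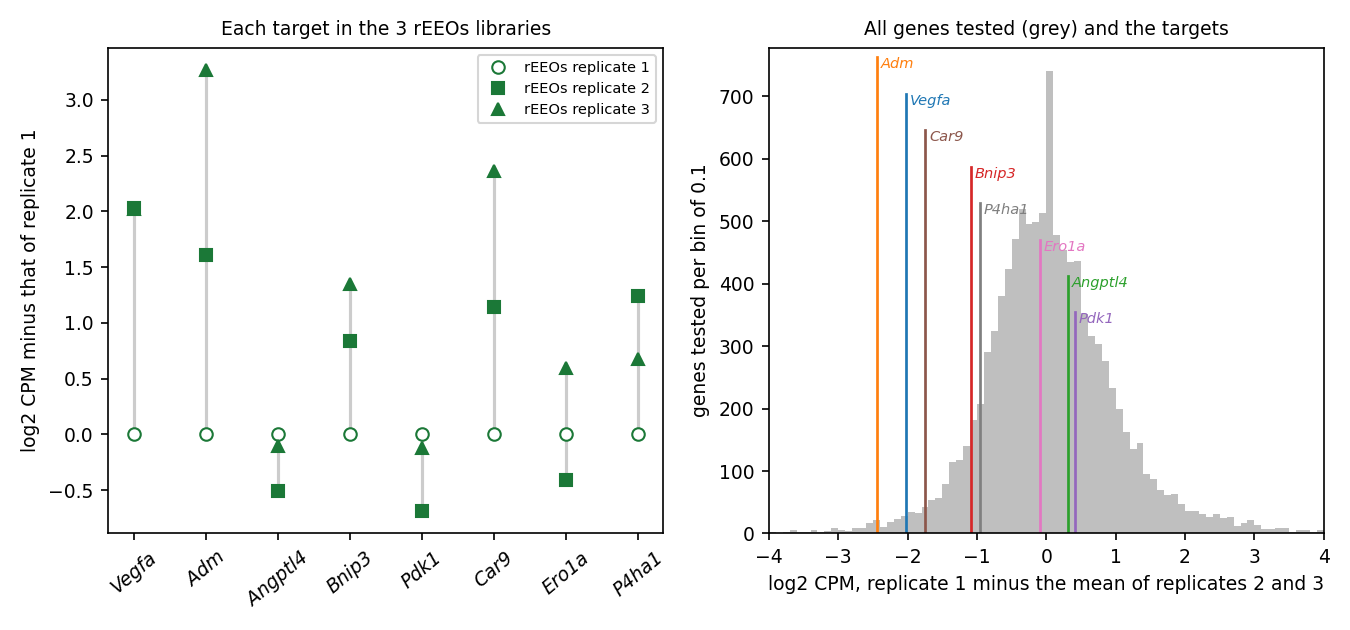
Left, log2 CPM of each target in the 3 rEEOs libraries relative to replicate 1 (open circles), and right, the difference of replicate 1 from the mean of replicates 2 and 3 for all 10607 tested genes (grey bars) with the targets as lines. Adm, Vegfa and Car9 lie in the lower tail at -2.44, -2.02 and -1.75, and Pdk1 and Angptl4 lie above 0.

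The scale changed how many targets passed the 2-fold mark. On TPM the difference was -1.93 for Adm, -1.66 for Vegfa, -1.27 for Car9, -0.60 for Bnip3 and -0.43 for P4ha1, so that 3 targets passed it, while 3.96% of all tested genes did. The median of all tested genes on TPM was itself 0.45, and relative to it 4 targets passed, with Vegfa at -2.11 and Bnip3 at -1.05. Ero1a stood at 0.40 on TPM, on the other side of 0 from its CPM value. Vegfa on TPM was slightly higher in replicate 3 (349) than in replicate 2 (332.5).

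Transcript length moved with the difference between the rEEOs libraries. In 4 equal bins of tested genes from the shortest to the longest transcripts, the median difference of replicate 1 was -0.42, -0.09, 0.14 and 0.51. The targets numbered 2, 5, 1 and 0 in those bins, with Vegfa in the third. With the length trend removed in each library, the difference was -2.19 for Vegfa, -2.14 for Adm, -1.65 for Car9, -0.95 for P4ha1 and -0.84 for Bnip3. Vegfa, Adm and Car9 thus kept a difference of more than 2-fold, and Bnip3 did not.

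**Figure D4:**
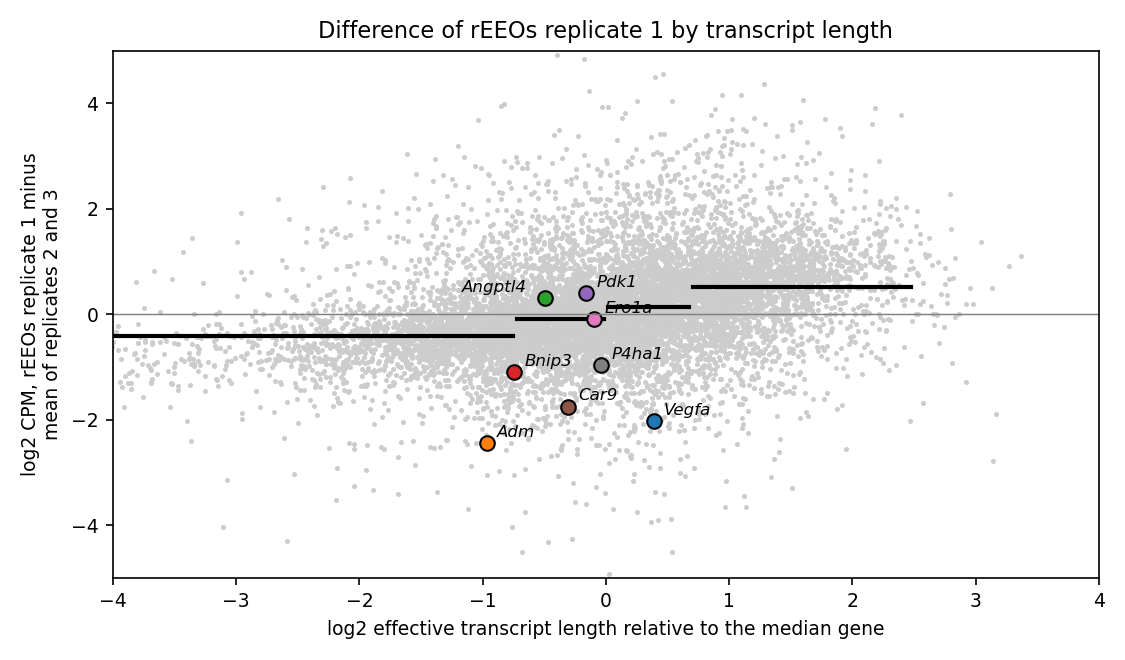
Log2 CPM of rEEOs replicate 1 minus the mean of replicates 2 and 3 against effective transcript length relative to the median gene (log2), with each tested gene in grey, black bars for the medians of the 4 length bins, and the targets in colour. The bin medians run from -0.42 to 0.51, and Vegfa lies at -2.02 among genes whose median is 0.14.

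Genes outside the targets stood on both sides in rEEOs replicate 1. At least 2-fold differences were lower in 14 and higher in 14 of the 110 tested list genes, and lower in 1051 and higher in 1409 of all tested genes. Some markers of cell types moved with the targets. The 7 blood and macrophage markers held summed to 32.8, 134 and 107 TPM in rEEOs replicates 1, 2 and 3 against 0.39 to 1.07 in rBMSCs, and Cd68, a lysosomal protein, made up 31.8, 133 and 105 TPM of those sums. The remaining defining macrophage markers were at or near 0, with Csf1r at 0 to 2 counts and Laptm5 at 0 counts in the rEEOs libraries, and Adgre1 at 18, 0 and 4 counts. Of the mesenchymal markers, Vim stood at 171, 297 and 227 TPM and Postn at 11, 73 and 284 counts in those libraries, and of the epithelial markers Cldn4 stood at 108, 535 and 500.5 TPM. Cdh1 went the other way, with 338, 108 and 137 TPM. So did Krt7 (795, 410 and 425 TPM), Muc1 (133, 65.3 and 93.8 TPM), Esrp1 (110, 72.2 and 59.5 TPM) and Foxa2 (11.1, 0.09 and 3.46 TPM). Krt19 (587, 623 and 692 TPM) and Cldn3 (272, 327 and 344 TPM) were lowest in replicate 1, as Cldn4 was. On TPM, Epcam, Krt8 and Krt18 were not lowest there. Among the list genes, Atf3, a stress-induced transcription factor, stood at 40.6, 594.5 and 554 TPM. Fabp4, a fatty acid carrier, stood at 9.96, 103 and 137 TPM, while the 12 PPAR response genes that include it had a median difference of 0.78 and 3 of them were at least 2-fold higher in replicate 1. The part of any of these in the difference between the rEEOs libraries was not tested.

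The spread within each group was compared with that of all tested genes. The SD of log2 CPM over the rEEOs libraries was 1.63 for Adm, 1.18 for Car9 and 1.17 for Vegfa, higher than in 97.5%, 93.4% and 93.2% of tested genes, whose median was 0.38. Bnip3 (0.68), P4ha1 (0.62) and Ero1a (0.51) came next. Pdk1 (0.37) and Angptl4 (0.27) were at or below the median. In rBMSCs the median SD of the 8 targets was 0.08, against 0.10 over all tested genes. Angptl4, with 0 to 1 counts there, had an SD of 0.34 in rBMSCs, above its value in rEEOs.

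The genes whose profile was nearest to that of Vegfa were sought among the other 10606 tested genes, by the root mean square difference of log2 CPM over all 6 libraries after centring. They were Rsrp1 (0.15), Cep95 (0.18), Prdm1 (0.22), Irf3 (0.22) and Phf1 (0.22). Rsrp1, for example, measured 30.0 to 32.8 TPM in rBMSCs and 92.9, 286 and 275 TPM in rEEOs replicates 1, 2 and 3. None of the 5 is one of the targets or belongs to the related lists. Of the targets, Bnip3 ranked 44, Adm 226, Angptl4 1009, Ero1a 1286, Car9 1464, Pdk1 3180 and P4ha1 7006. The likeness is a description over 6 libraries in which the group difference and the low rEEOs replicate 1 weigh most.

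The oxygen sensing genes were examined beside their targets. Of the 15 tested, 5 were higher in rEEOs, 4 were lower and 6 did not pass (edgeR, adjusted p under 0.05), with a median log2 fold change of -0.08. By this rule 33.3% of all tested genes were higher and 30.2% were lower, so the counts were near those shares. The same shares stand beside each list that follows. Egln3, the prolyl hydroxylase that is itself a strong hypoxia target, was at 0 counts in all rBMSCs libraries and at 103, 119 and 132 TPM in rEEOs replicates 1, 2 and 3, at least 1310-fold higher (adjusted p = 8.2e-05, edgeR). Epas1, the alpha subunit HIF-2 alpha, was at 0.19, 0.25 and 0.40 TPM in rBMSCs and at 7.21, 1.55 and 2.62 TPM in rEEOs, and rose by 3.87 (SE 0.57, adjusted p = 0.0014, edgeR). Unlike Vegfa, on TPM both it and its partner Arnt2, which rose by 2.50 (SE 0.25, adjusted p = 0.000243, edgeR), were highest in rEEOs replicate 1.

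Hif1a, the alpha subunit HIF-1 alpha, was at 57.6, 48.6 and 54.3 TPM in rBMSCs and at 44.7, 31.8 and 38.1 TPM in rEEOs. Its TPM ranges did not overlap, yet its log2 fold change of -0.25 (SE 0.12) did not pass the test on counts (adjusted p = 0.109, edgeR). The result turned on the scale: on log2(TPM + 1) it passed as lower (-0.49, adjusted p = 0.0384, limma), as it did on log2(TPM + 0.1) (-0.50, adjusted p = 0.0396, limma), and it changed sign, to 0.12, with scaling by library size alone. Its abundance is set mainly at the protein level, which RNA does not show. Arnt had a log2 fold change of -1.29 (SE 0.33, adjusted p = 0.0141, edgeR), Vhl one of -1.11 (SE 0.20, adjusted p = 0.00363, edgeR) and the coactivator Crebbp one of -0.76 (SE 0.13, adjusted p = 0.00229, edgeR). Vhl kept its call under every alternative. Arnt lost its call with scaling by library size alone (adjusted p = 0.0638, edgeR), and Crebbp with the length trend removed (adjusted p = 0.788, limma). Egln1, the main oxygen sensor, rose by 0.72 (SE 0.22, adjusted p = 0.0256, edgeR), a call that was lost with limma on log2(TPM + 1) or log2(TPM + 0.1) (adjusted p = 0.101 and 0.103) and without any single rBMSCs library (adjusted p 0.0701 to 0.0883, edgeR).

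Glycolysis genes that hypoxia induces were higher in rEEOs in 13 of 17 tested, lower in 1 and not passed in 3 (edgeR, adjusted p under 0.05), with a median log2 fold change of 1.17. The count of higher genes was 14 with scaling by library size alone, where 4833 of all 10607 tested genes were higher, in place of 3528. It was 10 with limma on log2(TPM + 1), where 2572 of all 10076 tested genes were higher. Slc16a3, the lactate exporter, rose by 6.53 (SE 0.21, adjusted p = 5.16e-06, edgeR), from 0.98 to 1.33 TPM in rBMSCs to 64.3 to 123 TPM in rEEOs. Slc2a1, the glucose transporter GLUT1, was at 32.6 to 34.2 TPM in rBMSCs and at 227, 178 and 391 TPM in rEEOs, and rose by 3.26 (SE 0.36, adjusted p = 0.00041, edgeR). Pfkl, a subunit of phosphofructokinase, rose by 2.30 (SE 0.13), Pgk1 by 1.78 (SE 0.22) and Ldha, which makes lactate, by 1.17 (SE 0.22), each with an adjusted p of 0.00367 or less in edgeR's test. Slc2a3, a second glucose transporter, was the gene that fell, from 1.66 to 6.98 TPM in rBMSCs to 0.27 or less in rEEOs.

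None of the 17 glycolysis genes was at least 2-fold lower in rEEOs replicate 1 than in the mean of the others, where 9.91% of all tested genes were, and their median difference there was 0.22. Hk1 did not pass the test between the groups (log2 fold change -0.51, SE 0.26, adjusted p = 0.124, edgeR), but passed as lower without rEEOs replicate 1 (adjusted p = 0.00392, edgeR). Eno2 did not pass either, and it ranged from 0.01 to 25.6 TPM within rBMSCs and from 0.04 to 28.5 within rEEOs, with counts that were not whole, as RSEM gives where it shares reads between transcripts. Several glycolysis genes, Gapdh and Ldha among them, have processed pseudogenes with which reads can be shared. Counts of Gapdh were likewise not all whole, while those of Ldha were whole in every library.

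Other hypoxia-inducible genes went both ways. Of 30 tested, 17 were higher, 7 were lower and 6 did not pass (edgeR, adjusted p under 0.05), with a median log2 fold change of 1.46. Beside Car12, the largest increases were in Cxcr4, a chemokine receptor, which was at 0 counts in rBMSCs and at 18.8 to 28.5 TPM in rEEOs (at least 144-fold higher, adjusted p = 0.000208, edgeR), and in Ndrg1, a stress-response gene, which rose by 5.82 (SE 0.34, adjusted p = 3.03e-05, edgeR) to between 817 and 1393 TPM. The largest decreases were in the collagen enzymes Lox, Loxl2 and Plod2 given above. Of the 30, 18 were lowest in rEEOs replicate 1 and 5 were at least 2-fold lower there, against 41% and 9.91% of all tested genes.

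The receptors and relatives of the secreted targets were split. Of 9 tested, 3 were higher, 5 were lower and 1 did not pass (edgeR, adjusted p under 0.05). Flt1, a VEGF-A receptor of endothelial cells, was at 0.88 to 2.53 TPM in rEEOs and rose by 3.88 (SE 0.46, adjusted p = 0.000545, edgeR). Calcrl, the core subunit of the adrenomedullin receptor, was at 65 to 71 counts in rBMSCs and at 10, 16 and 1 counts in rEEOs replicates 1, 2 and 3, and fell by 2.88 (SE 0.70, adjusted p = 0.0112, edgeR) on the log2 scale. Ramp2, which gives Calcrl its preference for adrenomedullin, rose by 3.20 (SE 0.31, adjusted p = 0.000224, edgeR) to between 63.9 and 89.0 TPM, and Adm2, a relative of Adm, rose by 2.58 (SE 0.34, adjusted p = 0.000793, edgeR). The co-receptors Nrp1 and Nrp2 fell by 7.06 (SE 0.18) and by 3.18 (SE 0.58) on the log2 scale, both with an adjusted p of 0.00339 or less in edgeR's test. Vegfd, which the table names Figf, was at 6.75 to 9.45 TPM in rBMSCs and at 1 count or fewer in rEEOs, at least 58.1-fold lower. Kdr, the main signalling receptor of VEGF-A, and Vegfc and Pgf were not analysed here.

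The list of paralogs and partners of the other targets held 22 tested genes, of which 8 were higher, 8 were lower and 6 did not pass (edgeR, adjusted p under 0.05). These counts were near the 33.3% higher and 30.2% lower of all tested genes. Angptl1, a relative of Angptl4, was at 31 to 37 counts in rBMSCs and at 1 count or fewer in rEEOs, at least 11.1-fold lower. Lpl, the lipase that Angptl4 inhibits, had 27 to 33 counts in rBMSCs and 3 or fewer in rEEOs, at least 9.55-fold lower. Angptl4 was thus read in rEEOs where its target enzyme was at or near 0.

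Stress and lipid responses, which can also induce some of the targets, were counted for comparison. Of 9 tested genes of the unfolded protein and ATF4 response, 2 were higher, 2 were lower and 5 did not pass (edgeR, adjusted p under 0.05). Of all tested genes, 33.3% were higher and 30.2% were lower. Atf3 rose by 7.14 (SE 1.21, adjusted p = 0.00252, edgeR) and Xbp1, a regulator of secretory capacity, by 1.20 (SE 0.23, adjusted p = 0.00449, edgeR). Hyou1, a chaperone, did not pass (log2 fold change 0.39, SE 0.20, adjusted p = 0.129, edgeR). It passed as higher with scaling by library size alone (adjusted p = 0.0207, edgeR) and with the length trend removed (adjusted p = 0.000707, limma). Sel1l, of the pathway that clears misfolded proteins, fell by 1.69 (SE 0.30) and the serine enzyme Psat1 by 0.97 (SE 0.19, lost at an adjusted p of 0.0508 with scaling by library size alone, edgeR) on the log2 scale, while Chac1 did not pass (log2 fold change -1.47, SE 0.59, adjusted p = 0.0673, edgeR). Chac1 passed as lower with DESeq2 (adjusted p = 0.0194), limma on log2(TPM + 1) (adjusted p = 0.0124) and the length trend removed (adjusted p = 0.0148, limma). It also passed without rEEOs replicate 1 or 3 (adjusted p = 0.0454 and 0.00572, edgeR).

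Of 12 PPAR response genes tested, 4 were higher, 3 were lower and 5 did not pass (edgeR, adjusted p under 0.05). These counts were near the 33.3% higher and 30.2% lower of all tested genes. Fabp4 was at 1 count or fewer in the rBMSCs libraries and at least 101-fold higher in the mean of rEEOs. Its counts in rEEOs replicates 1, 2 and 3 were 31, 338 and 444. Cd36, a fatty acid transporter, was at least 43.9-fold higher in the mean of rEEOs, although rEEOs replicate 2 had 12 of its counts against 149 and 237 in the others. The receptor Ppara rose by 1.85 (SE 0.36, adjusted p = 0.00454, edgeR) at 0.67 to 1.48 TPM in rEEOs, and Pparg fell by 2.22 (SE 0.32) on the log2 scale to between 0.40 and 0.93 TPM. Plin4, a lipid droplet protein, had 68 to 73 counts in rBMSCs and 0, 4 and 1 counts in rEEOs replicates 1, 2 and 3. Its fitted fall of 5.26 (SE 0.75) on the log2 scale rests on these few reads and is no bound. Rxra, the shared partner of these receptors, did not pass (log2 fold change -1.23, SE 0.51, adjusted p = 0.0747, edgeR). It passed as lower with DESeq2 (adjusted p = 0.0355), limma on log2(TPM + 1) (adjusted p = 0.0497) and the length trend removed (adjusted p = 0.0322, limma). It also passed without rEEOs replicate 1 (adjusted p = 3.29e-05, edgeR).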

How the data were processed

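Polyadenylated RNA of 3 rEEOs and 3 rBMSCs samples had been sequenced as single-end reads. The methods and the submitters' processing notes name Trim Galore for trimming, Bowtie2 2.2.5, the rat build Rnor_6.0 and RSEM for quantification. The table the authors deposited holds, 3 values for each gene and library: a raw expected count from RSEM (7.31% to 8.44% of them not whole), a TPM and an FPKM. The deposited TPM values covered 81.3% to 82.7% of a full library. The deposited FPKM values served, with the counts, only to rank transcript lengths. The copy analysed holds 13728 genes and ends within its last row, with 23 of 27 fields.

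After rounding of expected counts, 10607 genes reached 10 counts in 3 or more libraries and were tested with edgeR 4.0.16 (TMM, glmQLFit, glmQLFTest, cell type as the only term) in R 4.3.3, with Benjamini-Hochberg adjustment over all of them. The TMM factors were 0.866 to 0.885 (rBMSCs) and 1.097 to 1.195 (rEEOs). Genes counted as called higher or lower had an adjusted p under 0.05 and a log2 fold change beyond 2 in size, unless another fold threshold is given. A call that a single gene kept, lost or gained refers to an adjusted p under 0.05 alone. Where every library of a group had 3 counts or fewer, the fold is a bound against 3 counts in each library. It sets the mean CPM of the other group over that floor, so it bounds the group means and not each single library. CPM values were TMM-scaled, with a prior count of 2 on the log2 scale. Promoters came from RefSeq (GRCr8), a different build, and 12875 gene IDs matched its gene table. Python 3.11.15 was used for summaries. Tested on simulated data, edgeR recovered 187 of 200 genes shifted by 3 on the log2 scale among 10607, with 8 false calls. The simulation gave both groups the same dispersion for each gene. In the data the median SD of log2 CPM was 0.38 in rEEOs and 0.10 in rBMSCs, so these rates may not carry over.

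The 8 genes, the related lists and the markers were chosen with earlier results of these data known. Named were the 8 targets, a set of regulators and relatives (Hif1a, Epas1, Egln1, Egln3, Vhl, Slc2a1, Ldha, Pgk1, Bnip3l, Car12, P4ha2, Pdk2, Pdk3, Pdk4 and Ero1b), the 3 largest and 3 smallest log2 fold changes of each list, and the 5 genes nearest to Vegfa. Cd68, Csf1r, Laptm5, Adgre1, Col1a1, Col1a2, Col3a1, Vim, Postn, Cldn4, Cdh1, P4hb, Plod1, Gapdh, Calcrl, Ca5b, Car13 and Car3 were named in addition, after their values were seen. So were the markers Krt7, Muc1, Esrp1, Foxa2, Krt19, Cldn3, Epcam, Krt8, Krt18 and Dcn. Of 148 listed genes, 117 were held and 110 tested. Alternatives were DESeq2 1.42.0, other scalings and filters, a replicate block, and leaving out each library. Limma 3.58.1 was run on log2 TPM with pseudocounts of 1 and 0.1 (genes of at least 1 TPM in 3 libraries). It was also run on log2 CPM with a length trend removed, which was added after seeing the data.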

Additional observations from a re-analysis of the deposited data

How the results depend on the processing

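Vegfa (log2 fold change 2.41 to 3.35), Adm (2.53 to 4.21), Bnip3 (2.69 to 3.44) and Ero1a (1.13 to 1.84) kept direction and call by adjusted p in all 15 alternatives, and Angptl4 did in the 12 that tested it. Pdk1 (0.57 to 1.10) lost its call in 4 of 15 and P4ha1 (-1.37 to -0.65) in 5, while Car9 (0.33 to 1.57) gained one in 1. With a fold threshold of 1 on the log2 scale, 1 target was called lower in place of 0. By adjusted p alone the count of lower targets was 0 with scaling by library size alone, in place of 1. With a library left out it was 0 to 1. Of all 10607 tested genes, 2196 were lower with scaling by library size alone, in place of 3199. With a library left out, 2486 to 4098 of them were. Of the 110 tested genes of the related lists, 29 were called higher and 17 lower, against 16.3% and 13.3% of all tested genes. Limma on log2(TPM + 1) called 18 of 105 list genes higher, and 1121 of all 10076 genes it tested. Pdk3 turned from -0.37 to 0.00976 with scaling by library size alone, and Pdp2 turned from 0.07 to -0.71 (adjusted p = 0.0134, edgeR) without rEEOs replicate 1 and reached 0.43 without replicate 2, and the cause was not tested. ACGTG alone was found in 2 promoters in place of 4.

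Replicate numbers are shared between the groups, but libraries with the same number did not deviate together (correlations 0.14, 0.16 and -0.13), so they were not taken as pairs. With the replicate block, 4 targets were called higher, and 6 were higher and 1 lower by adjusted p alone. Of all 10607 tested genes, 1710 were then called higher, and 3204 were higher and 3139 lower by adjusted p alone. Vegfa had a log2 fold change of 2.68 with the block. Counts limit Angptl4 in rBMSCs, where 3 counts are 0.220 to 0.233 CPM, and 3 libraries a group limit the smaller changes.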
